A study of Mus musculus with 6 samples.

Results

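Fibronectin (Fn1), the thrombospondins (Thbs1 to Thbs4), the tenascins Tnc and Tnxb, periostin (Postn), Sparc and its relative Sparcl1 encode secreted glycoproteins of the extracellular matrix. These 10 genes were taken by name from 18008 genes tested, each through the single probe set that the platform annotation gives to that gene alone, and all 10 passed the filter on dim probe sets. Their signal was compared between aortas of mice deficient in endothelial nitric oxide synthase (eNOS), in which the vessel lining lacks its nitric oxide-forming enzyme, and age-matched aortas of the wild type. Each genotype has 3 samples, named here by the numbers in their titles (eNOS-deficient 11, 15 and 19, and wild type 2, 3 and 5), and each sample was hybridised to 1 Affymetrix array. Genotype and tissue are the only characteristics the labels give. The sources used here give no strain, targeted allele, sex or age. Since they do not say either whether each sample is a separate animal, the p-values reflect the spread among these 6 samples, which may in part be technical.

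Fibronectin is an adhesive protein that cells assemble into fibrils through integrins, mainly the integrin of Itga5 and Itgb1, and it serves as a scaffold on which collagen and other matrix is laid down. Thrombospondins, tenascins, periostin and Sparc are called matricellular proteins: they bind matrix, growth factors and cell surface receptors and modulate how cells adhere and respond, rather than bearing load. In arteries, smooth muscle cells and adventitial fibroblasts are major sources, and fibronectin, tenascin-C and periostin are well known from remodelling vessel walls. In whole aorta, more cells of a type and more RNA per cell cannot be told apart.

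Fn1, Tnc, Postn and Thbs2 had higher signal on all 3 eNOS-deficient arrays than on any wild-type array. The largest of these differences were those of Tnc, which was 1.95-fold higher (95% interval 1.29 to 2.95), and Fn1, which was 1.91-fold higher (1.52 to 2.41). None of the 10 genes passed a Benjamini-Hochberg adjusted p of 0.05 in limma, a linear model fitted across all 18008 genes, where 5 genes or 0.0278% passed. At an unadjusted p under 0.05, 4 of the 10 were higher (Fn1, Tnc, Postn and Thbs2) and none was lower, beside 7.86% and 3.72% of all genes tested. The genotypes did not overlap, with the eNOS-deficient arrays above, for the same 4 genes and for 13.1% of all genes. Over all genes, 1415 were higher and 669 lower at that threshold. Array medians of the deposited values were 5.55 to 5.59 log2 on the eNOS-deficient and 5.61 to 5.68 on the wild-type arrays. With arrays centred on their medians, 2028 genes were higher and 388 lower, and 5 of the 10 were higher. With quantile normalization repeated, 1115 were higher and 484 lower, and 3 of the 10 were higher (Fn1, Tnc and Postn). Thbs2 then overlapped between genotypes. Of the 10 differences 9 were positive, as were 56.6% of all differences, and their median was 0.50 log2 against 0.036 over all genes.

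**Figure D1:**
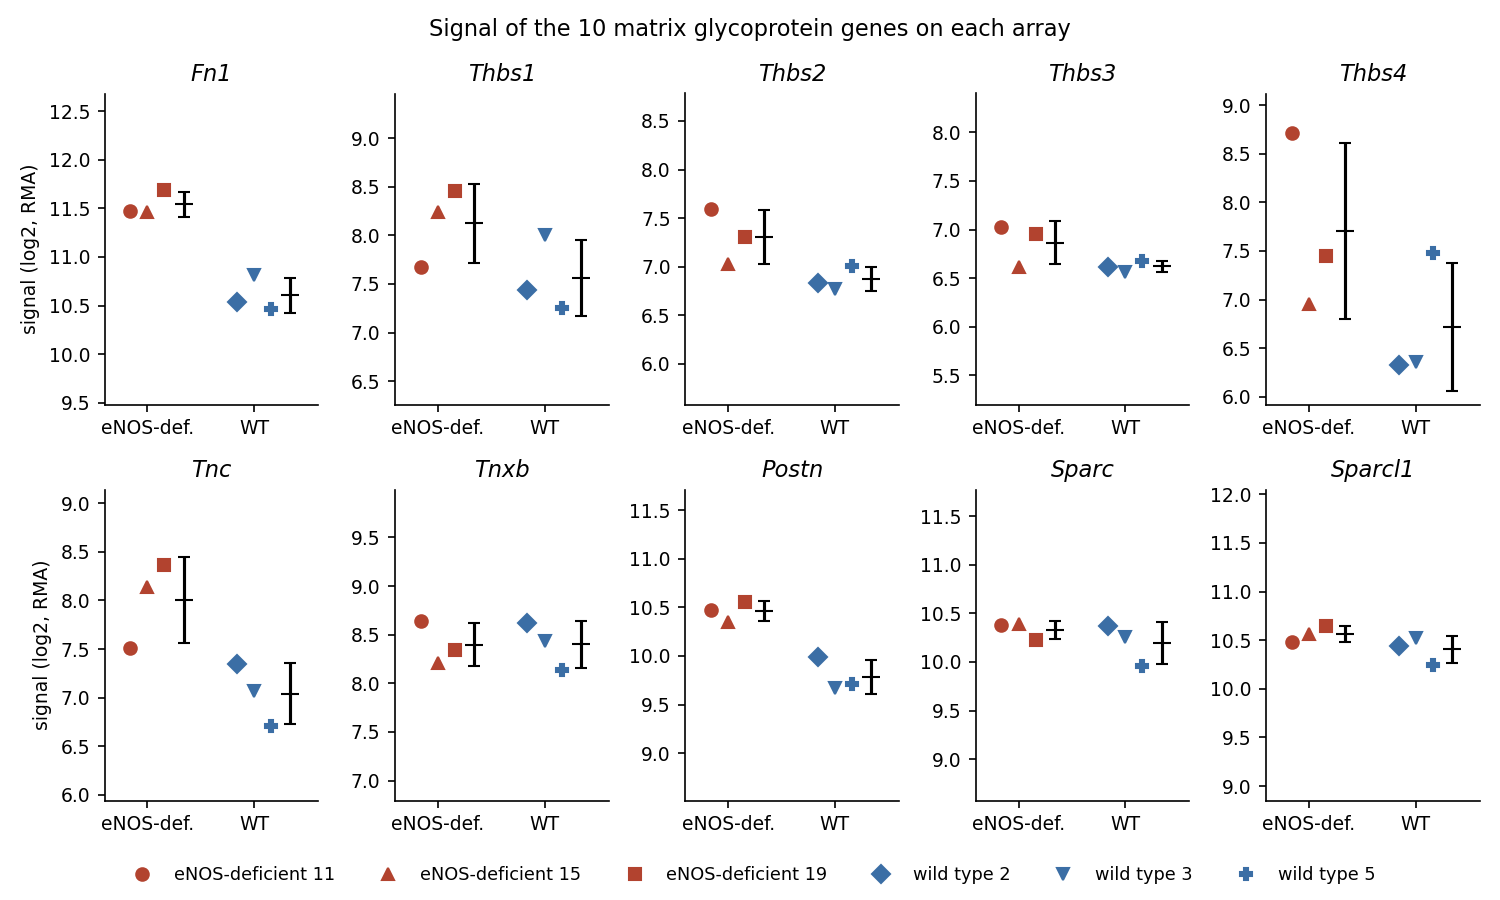
Signal of each of the 10 genes (log2, RMA) on every array, eNOS-deficient arrays left and wild-type arrays right; each symbol is 1 array, and bars give the mean and SD of 3 arrays. All panels span the same number of log2 units. The genotypes are separate for Fn1, Thbs2, Tnc and Postn, and Thbs4 has its highest value, 8.71, on eNOS-deficient 11.

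Nos3, the gene that encodes eNOS, measured 7.13, 7.39 and 7.27 log2 on eNOS-deficient 11, 15 and 19, against 7.99, 7.88 and 7.36 on wild type 2, 3 and 5. The value of wild type 5 lay inside the eNOS-deficient range (difference -0.48, limma adjusted p = 0.399), and where the probes lie relative to the targeted part is not given in the sources used here. Across all probe sets, Pearson's r between arrays was 0.947 to 0.983. Smooth muscle markers, 10 measured, averaged 9.35 to 9.60 on the eNOS-deficient arrays and 9.14 to 9.34 on the wild-type arrays, and 10 endothelial markers 8.16 to 8.49 and 8.01 to 8.83 in the same order. Both lists of defining aortic cells thus lay well above the filter on dim probe sets, 4.38 log2, on every array. Some arrays stood apart in markers of other tissue. Skeletal muscle markers (10) averaged 11.51 on eNOS-deficient 11 and 10.87 on wild type 5, against 9.01 to 10.04 on the others. Lymphocyte markers (8) averaged 5.86 on eNOS-deficient 11 and 7.65 to 8.56 elsewhere. Squamous epithelium markers (9) averaged 8.88 on wild type 5 and 6.18 and 5.32 on wild type 2 and 3. On the eNOS-deficient arrays they averaged 5.10 to 5.14. Y-linked genes (3) averaged 7.76, 4.71 and 8.0 on eNOS-deficient 11, 15 and 19 and 3.47 to 3.63, under that filter, on the wild-type arrays, and the labels give no sex. Y-linked signal did not overlap between genotypes, so a difference that goes with it and one that goes with genotype cannot be fully told apart.

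Fn1, on chromosome 1, had signals of 11.47, 11.47 and 11.69 log2 on eNOS-deficient 11, 15 and 19, against 10.54, 10.81 and 10.47 on wild type 2, 3 and 5. The lowest eNOS-deficient array was 0.66 log2 above the highest wild-type array, the widest gap of the 10 genes. Means were 11.54 ± 0.13 and 10.61 ± 0.18 (SD, n = 3 each), a difference of 0.94 log2 with a standard error of 0.14 (unadjusted p = 0.000245, limma adjusted p = 0.198). The two-sided exact permutation p was 0.1, the smallest that 3 samples against 3 allow. Without eNOS-deficient 11 and wild type 5, the arrays with most skeletal muscle signal, the difference was 0.90.

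Tenascins are large multimodular glycoproteins, of which Tnc is scarce in most resting adult tissue and made at sites of injury and remodelling, while Tnxb is a constant component of loose connective tissue that associates with collagen fibrils. Tnc had 7.51, 8.14 and 8.37 log2 on eNOS-deficient 11, 15 and 19, and 7.35, 7.07 and 6.71 on wild type 2, 3 and 5. Its arrays were spread more widely than those of Fn1, and eNOS-deficient 11 was only 0.17 above the nearest wild-type array. The means were 8.01 ± 0.44 for the eNOS-deficient and 7.04 ± 0.32 for the wild-type group (SD, n = 3 each), a difference of 0.96 (standard error 0.26, limma adjusted p = 0.289). Tnxb had 8.65, 8.21 and 8.34 on the eNOS-deficient arrays, against 8.62, 8.44 and 8.14 on wild type 2, 3 and 5. The Tnxb groups covered nearly the same range, and the 95% interval of the difference, -0.41 to 0.41 log2, leaves room for a 1.33-fold change in either direction. Within arrays, the log2 ratio of Tnc to Tnxb was -1.13, -0.07 and 0.03 on the eNOS-deficient arrays and -1.27, -1.37 and -1.43 on the wild-type arrays. The ratio was thus higher in eNOS-deficient aorta by 0.97 without overlap (exact permutation p = 0.1, or 0.4 adjusted over 8 pairs of relatives compared), with eNOS-deficient 11 close to wild type.

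Postn encodes periostin, which binds fibronectin, tenascin-C and collagen and takes part in collagen fibril formation. It had 10.48, 10.35 and 10.56 log2 on eNOS-deficient 11, 15 and 19, against 9.99, 9.67 and 9.71 on wild type 2, 3 and 5. The 3 eNOS-deficient values lay within 0.20 of each other and 0.37 above the highest wild-type value. Means were 10.46 ± 0.10 and 9.79 ± 0.17, a difference of 0.67 (standard error 0.14) or 1.6-fold (limma adjusted p = 0.208, exact permutation p = 0.1).

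RefSeq promoter windows of build GRCm38.p6, from 250 bases before to 50 bases after a transcription start, were on hand for 7 of the 10 genes. Those of Tnc, Postn and Thbs2 are shown because they belong to genes whose genotypes did not overlap. A window of a second, downstream start of Tnc (chr4:64046887-64047186) shares most of its bases with the one shown and is not printed. Capitals mark matches, on either strand, to the TATA box TATAAA, the AP-1 motif TGANTCA, the TEAD motif GGAATG, the SMAD motif CAGAC and the GC box GGGCGG, and no marked matches overlap one another.
Tnc, chr4:64046966-64047265, minus strand: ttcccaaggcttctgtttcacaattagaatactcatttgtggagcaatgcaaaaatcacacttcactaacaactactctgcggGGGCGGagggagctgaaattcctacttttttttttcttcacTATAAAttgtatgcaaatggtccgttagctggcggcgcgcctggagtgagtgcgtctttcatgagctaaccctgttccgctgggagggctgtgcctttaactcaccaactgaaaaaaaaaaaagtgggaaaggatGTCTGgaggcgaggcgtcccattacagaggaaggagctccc
Postn, upstream start, chr3:54359017-54359316, plus strand: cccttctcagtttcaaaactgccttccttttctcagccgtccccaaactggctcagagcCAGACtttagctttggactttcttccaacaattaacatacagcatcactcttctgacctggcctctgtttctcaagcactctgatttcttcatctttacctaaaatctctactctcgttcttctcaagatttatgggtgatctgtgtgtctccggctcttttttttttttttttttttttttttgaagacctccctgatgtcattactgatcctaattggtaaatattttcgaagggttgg
Postn, downstream start, chr3:54360857-54361156, plus strand: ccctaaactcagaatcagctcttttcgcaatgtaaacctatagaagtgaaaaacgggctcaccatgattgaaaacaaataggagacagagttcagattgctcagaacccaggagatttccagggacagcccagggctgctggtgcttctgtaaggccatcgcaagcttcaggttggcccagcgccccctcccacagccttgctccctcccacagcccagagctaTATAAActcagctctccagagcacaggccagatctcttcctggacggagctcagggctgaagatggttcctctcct
Thbs2, chr17:14694213-14694512, minus strand: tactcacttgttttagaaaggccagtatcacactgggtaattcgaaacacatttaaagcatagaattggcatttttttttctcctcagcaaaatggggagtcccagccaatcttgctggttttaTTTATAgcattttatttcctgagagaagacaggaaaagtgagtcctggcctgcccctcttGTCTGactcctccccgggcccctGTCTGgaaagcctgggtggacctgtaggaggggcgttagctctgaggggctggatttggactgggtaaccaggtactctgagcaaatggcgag

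A SMAD motif, the short element bound by the proteins that carry transforming growth factor beta signals, was found in the windows of the upstream start of Tnc (1 match), Thbs2 (2 matches, on the reverse strand at -66 and -43 from the start) and the upstream start of Postn (1 match at -191). The window of the downstream start of Tnc holds 2 matches, at -70 and 40 from that start, and that of the downstream start of Postn holds 0. It also occurs in 49.6% of all 32851 windows, and the windows of Thbs4, Tnxb and Sparc hold 2 matches each. TATAAA, present in 13.6% of windows, was found at -26 from the downstream start of Postn and at -126 from the upstream start of Tnc, and its reverse complement at -126 in Thbs2. AP-1 (7.81% of windows) and TEAD (14.7%) motifs had 0 matches in the windows of Tnc, Postn and Thbs2. A match is a run of letters and does not show that a factor binds there.

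Thrombospondins fall into trimeric forms, Thbs1 and Thbs2, which bind the receptor Cd36 and restrain new vessel growth, and pentameric forms, Thbs3 and Thbs4, which lack the domain responsible. Thbs1, an activator of latent transforming growth factor beta that is also known to inhibit nitric oxide signalling through Cd47, had 7.67, 8.24 and 8.46 log2 on eNOS-deficient 11, 15 and 19. It had 7.43, 8.01 and 7.26 on wild type 2, 3 and 5. Wild type 3 lay above eNOS-deficient 11, so the genotypes overlapped, and the difference of 0.56 had an interval of -0.06 to 1.18 (limma adjusted p = 0.472). Platelet markers averaged 6.30, 6.48 and 7.0 on eNOS-deficient 11, 15 and 19 and 6.21, 6.55 and 7.16 on wild type 2, 3 and 5 (7 markers). Within the eNOS-deficient group their order was that of Thbs1, and within the wild type it was not, wild type 5 being highest in platelet markers and lowest in Thbs1. Their part in the Thbs1 signal was not tested.

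Thbs2, on chromosome 17, had 7.59, 7.03 and 7.30 log2 on eNOS-deficient 11, 15 and 19, and 6.83, 6.77 and 7.01 on wild type 2, 3 and 5. Its groups were separated by only 0.021 log2, and the difference was 0.44 (interval 0.044 to 0.83, limma adjusted p = 0.392). Thbs3 had 7.03, 6.61 and 6.95 on the eNOS-deficient arrays against 6.62, 6.57 and 6.68 on wild type 2, 3 and 5. Here eNOS-deficient 15 lay inside the narrow wild-type range, and the difference of 0.24 (interval -0.09 to 0.58) did not pass (limma adjusted p = 0.548). The log2 ratio of Thbs2 to Thbs3 was 0.56, 0.42 and 0.35 on the eNOS-deficient arrays and 0.21, 0.21 and 0.33 on the wild-type arrays, 0.19 higher and without overlap (exact permutation p = 0.1, adjusted p = 0.4).

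Thbs4, a pentameric thrombospondin abundant in tendon and striated muscle, had 8.71, 6.96 and 7.45 log2 on eNOS-deficient 11, 15 and 19, against 6.32, 6.35 and 7.48 on wild type 2, 3 and 5. It had the largest mean difference of the 10 genes, 0.99, and also the widest interval, -0.16 to 2.14 (limma adjusted p = 0.488). Both groups were widely spread, with an SD of 0.91 for the eNOS-deficient and 0.66 for the wild-type arrays. Wild type 5 lay above both eNOS-deficient 15 and 19. The array highest in each genotype, eNOS-deficient 11 and wild type 5, was also the one highest in skeletal muscle markers, such as Ckm, the muscle creatine kinase, at 12.04 and 11.58 against 9.56 to 10.62 on the other arrays. Cartilage and tendon markers (9) averaged 5.16 to 5.47 on the eNOS-deficient arrays and 4.95 to 5.17 on the wild-type arrays. With skeletal muscle markers as a covariate the Thbs4 difference was 0.55, and without both arrays it was 0.86. Differences between Thbs4 and each other thrombospondin, as within-array ratios, overlapped between genotypes (exact permutation p = 0.3 to 0.6).

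Sparc, a collagen-binding protein of mineralised and remodelling tissue, had 10.38, 10.39 and 10.22 log2 on eNOS-deficient 11, 15 and 19, and 10.37, 10.26 and 9.96 on wild type 2, 3 and 5. Sparcl1, also called hevin, had 10.48, 10.57 and 10.65 on the eNOS-deficient arrays and 10.44, 10.52 and 10.25 on wild type 2, 3 and 5. For both genes wild type 5 was the lowest array and the genotypes overlapped. Differences were 0.14 (interval -0.20 to 0.47, limma adjusted p = 0.760) and 0.16 (-0.13 to 0.46, adjusted p = 0.662), intervals whose upper ends are 1.39-fold and 1.37-fold higher signal. The ratio of Sparcl1 to Sparc differed by 0.024 log2 between genotypes (exact permutation p = 0.9).

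**Figure D2:**
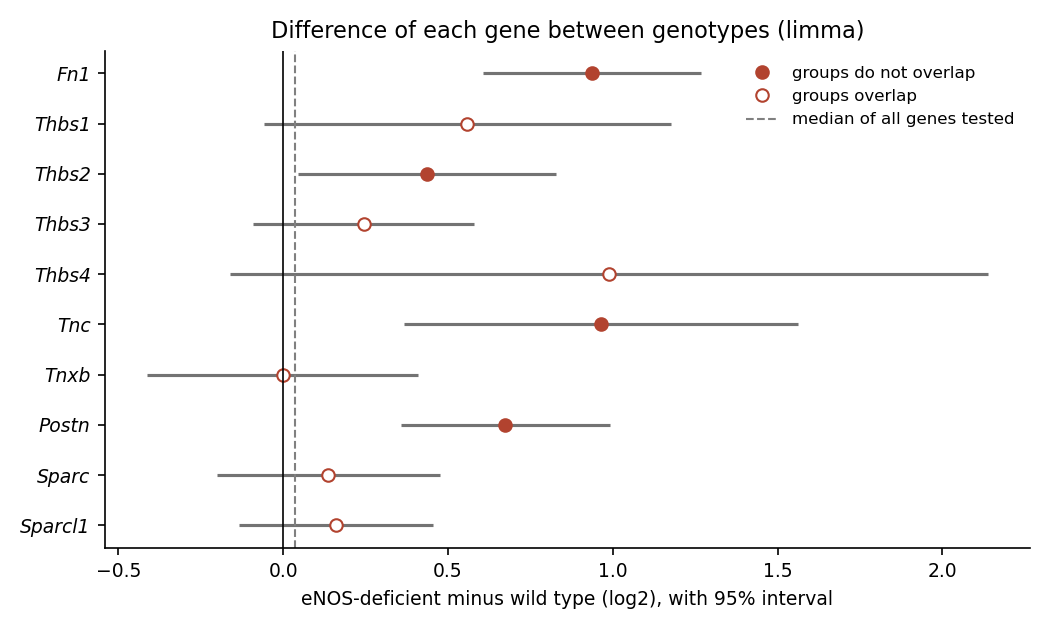
Difference in log2 signal, eNOS-deficient minus wild type, with its 95% interval from limma for each of the 10 genes; filled points are genes whose groups of 3 arrays did not overlap. Fn1, Thbs2, Tnc and Postn have intervals above 0, that of Tnxb is centred on 0, and that of Thbs4 is the widest.

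Among the eNOS-deficient arrays the 10 genes fell into different orders. Thbs2, Thbs3, Thbs4 and Tnxb were highest on eNOS-deficient 11, whereas Fn1, Thbs1, Tnc, Postn and Sparcl1 were highest on eNOS-deficient 19. Relative to the wild-type mean, Thbs1 and Tnc were 0.10 and 0.47 log2 higher on eNOS-deficient 11 but 0.90 and 1.33 higher on 19, and Thbs4 was 2.0 and 0.73 higher on those arrays. Fn1 and Postn varied least among the genes without overlap, at 0.86 to 1.09 and 0.57 to 0.77 above the wild-type mean on all 3 eNOS-deficient arrays. On eNOS-deficient 15, which had the lowest Y-linked signal of its group, Thbs2, Thbs3, Thbs4, Tnxb and Postn also had their lowest value of that group. Relative to the wild-type mean these were 0.16, -0.01, 0.24, -0.19 and 0.57. Fn1 was level, at 0.86, on eNOS-deficient 15 and 11. Thbs1, Tnc, Sparc and Sparcl1 were not lowest on eNOS-deficient 15. The part of Y-linked signal in this order was not tested.

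Means of adventitial fibroblast and macrophage markers were separate between genotypes. No marker in these 2 lists passed the adjusted test (lowest limma adjusted p 0.198 for fibroblast and 0.129 for macrophage markers). Smooth muscle means were also higher on the eNOS-deficient arrays but barely separate, 9.353 on eNOS-deficient 15 against 9.339 on wild type 2. Of these 10 markers 9 had positive differences and 2 were higher at an unadjusted p under 0.05, beside 7.86% of all genes. Squamous epithelium means were separate and lower on the eNOS-deficient arrays. Adventitial fibroblast markers (9 measured, 6 of them higher at an unadjusted p under 0.05, beside 7.86% of all genes) averaged 9.85, 9.70 and 9.75 on eNOS-deficient 11, 15 and 19, against 8.80, 8.99 and 9.41 on wild type 2, 3 and 5. Macrophage markers, 10 of 10 higher at that threshold, averaged 8.43, 8.44 and 8.78 against 7.45, 7.62 and 7.91. With the fibroblast mean as a covariate, the differences of Fn1, Tnc and Postn were 1.10, 1.82 and 0.89, against 0.94, 0.96 and 0.67 without it. Those of Thbs2 and Thbs4 were 0.075 and -0.81, against 0.44 and 0.99 without it. With the Y-linked mean as a covariate, Fn1 differed by 0.80, Tnc by 1.09 and Postn by 0.49, and Thbs2 by 0.030, with Fn1 alone at an unadjusted p under 0.05. The fibroblast mean, like the Y-linked mean, did not overlap between genotypes, so these fits cannot fully separate either from genotype. The parts of fibroblasts, smooth muscle and macrophages in these signals were not tested.

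**Figure D3:**
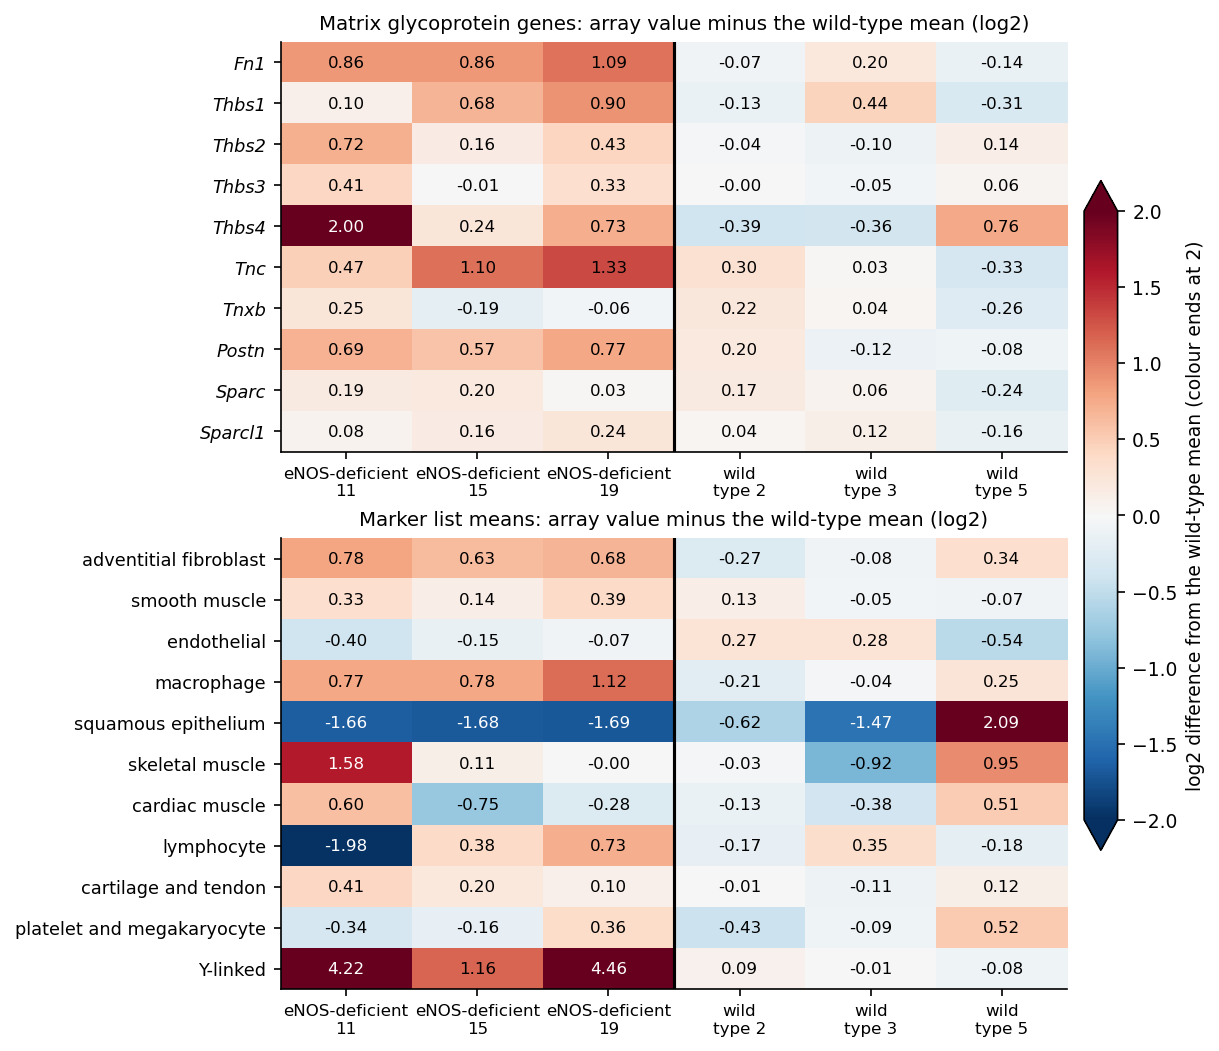
Each cell gives the log2 value of 1 array minus the wild-type mean, for the 10 genes (top) and for the means of marker lists (bottom), with eNOS-deficient arrays left of the line and wild-type arrays right. Thbs4 and skeletal muscle markers are both highest on eNOS-deficient 11 and wild type 5, while Fn1 and Postn are evenly high on the eNOS-deficient arrays.

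Other genes of the same system were followed through 5 lists. Of 90 entries measured in them, none passed the adjusted test. Matricellular and adhesive relatives had 24 members measured, of which 10 had an unadjusted p under 0.05 and higher signal, and 0 had such a p and lower signal (background 7.86% and 3.72%), with a median difference of 0.39 log2. The 4 with the smallest p were Fbln5, an elastic fibre protein, at 0.88 (standard error 0.16), Ccn2, a matricellular growth factor partner, at 1.09 (0.23), Smoc2, a Sparc relative, at 0.65 (0.15), and Vtn, the plasma adhesion protein vitronectin, at 0.50 (0.11), with limma adjusted p from 0.198 to 0.240. The other 6 were Comp, the thrombospondin of cartilage, Ccn3, a relative of Ccn2, Tgfbi, a periostin relative, Fstl1, a Sparc relative, Fbln1, a fibulin that binds fibronectin, and Ecm1, with differences of 0.40 to 1.17.

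Receptors and clearance genes had 22 members measured, with a median of 0.19. By the same threshold 4 had higher and 0 had lower signal, beside 7.86% and 3.72% of all genes. Itga5, the fibronectin-specific integrin chain, had 8.57, 7.97 and 8.48 log2 on eNOS-deficient 11, 15 and 19, against 7.92, 7.95 and 7.19 on wild type 2, 3 and 5, a difference of 0.65 (limma adjusted p = 0.394). The groups did not overlap, but eNOS-deficient 15 was close to wild type 2 and 3. Sdc2, a heparan sulphate proteoglycan that takes part in fibronectin assembly, differed by 0.47. Stab1, a scavenger receptor of macrophages that takes up Sparc, differed by 0.42, and Lrp1, an endocytic receptor for thrombospondins, by 0.34. Of the 22 differences 17 were positive. The thrombospondin receptors Cd36 and Cd47 differed by -0.26 (limma adjusted p = 0.464) and 0.069 (0.919). Cd36 was lower on all 3 eNOS-deficient arrays than on any wild-type array.

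Genes of focal adhesions and fibronectin assembly, 13 measured, had 0 at an unadjusted p under 0.05 and a median of 0.087. Their 4 smallest p belonged to Fermt2 (0.24), Rhoa (0.25), Vcl (0.18) and the crosslinking enzyme Tgm2 (-0.22), none under an adjusted p of 0.503. Of 17 inputs through transforming growth factor beta, SRF and YAP, 2 were higher at an unadjusted p under 0.05 and 0 lower. Over all genes tested these shares were 7.86% and 3.72%. The 2 were the ligands Tgfb2, by 0.63 (standard error 0.15), and Tgfb3, by 0.59 (0.18). Mrtfa (0.34) and Skil (0.25) came next, and the list median was 0.17. Of 14 fibrillar collagens and their partners, 2 were higher and 0 lower by that threshold, beside the same shares of all genes. The 2 were the fibril-associated collagens Col12a1, by 0.50, and Col14a1, by 0.62, and the list median was 0.25. Bmp1, a procollagen proteinase, and Col1a2, a chain of type I collagen, differed by 0.34 and 0.35.

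**Figure D4:**
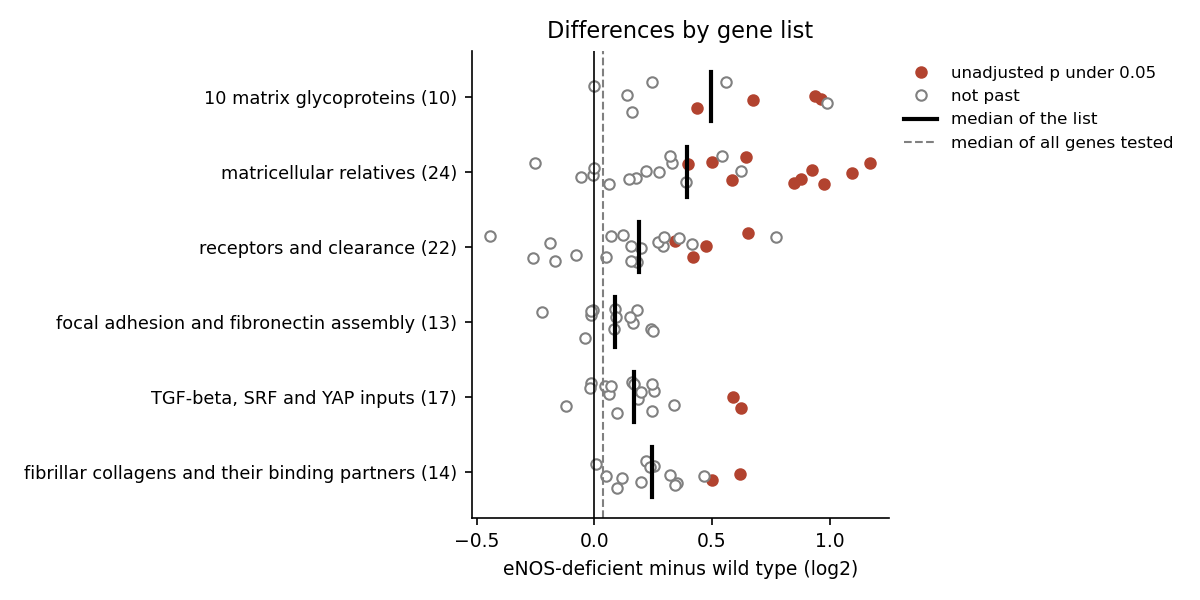
Log2 difference, eNOS-deficient minus wild type, of each measured gene in the 10 matrix glycoproteins and in 5 lists of related genes; filled points have an unadjusted p under 0.05, thick bars are list medians and the dashed line is the median of all genes tested. List medians run from 0.087 for focal adhesion genes to 0.50 for the 10 genes.

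Genes with the most similar pattern over the 6 arrays were sought by the root mean square distance between profiles, each gene's own mean subtracted, among genes varying at least 80% as much. For Fn1 the nearest of 1826 were Mmp9 (distance 0.093 log2), Mrc1, one of the macrophage markers (0.093), and Efhd1 (0.094), where the median gene was at 0.74. For Thbs1 they were Atp8b4 (0.090), Iqgap2 (0.095) and Ift80 (0.12) of 2481, and for Tnc they were Shisa3 (0.18), Fcna (0.20) and Fbln5 (0.24) of 1212. These are descriptions over 6 arrays that share 1 normalization.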

How the data were processed

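Per the labels' protocols, 300 ng of RNA from each of 6 aorta samples went into Affymetrix target preparation. The deposited log2 values were made by the authors with RMA (background correction, quantile normalization and probe summary) in Affymetrix Expression Console 1.3.1, per the submitters' processing notes, and were used as they are; the number of arrays limits the precision. Of 41345 probe sets, 23525 list 1 gene symbol. The brightest was kept for each of 22184 genes, and genes under the 25th percentile of probe set means (4.38 log2) were left out, which left 18008. All genes were fitted together with limma 3.58.1 in R 4.3.3 (two-sided, no covariates), with Benjamini-Hochberg adjustment over 18008 genes. Single values and 8 within-array ratios were compared by exact two-sided permutation, which cannot go below 0.1. Intervals are limma's 95% intervals.

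Members, lists and alternatives were chosen with earlier results of these data known. Of 205 list entries, 12 have no probe set of their own. Named list genes are the 4 with the smallest p per list. Others (the other 6 matricellular relatives, Cd36, Cd47 and Ckm) were chosen after their values were seen. Similar genes were sought for Fn1, Thbs1 and Tnc only. Alternatives covered the dim filter, variance model, probe set summary, scaling, array weights, a threshold of 0.1, 4 marker covariates and leaving out arrays. On data simulated for 18008 genes with 3 arrays a group, a 2-fold change was recovered in 44% of cases and a 4-fold change in 96%, with 11 false calls. The simulated noise was independent between genes and arrays, without the differences in tissue markers seen here. These rates therefore need not hold for the real arrays. Plots used matplotlib 3.10.9.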

Additional observations from a re-analysis of the deposited data

How the results depend on the processing

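No member passed an adjusted p of 0.05 under any alternative except array weights, where Fn1 did (1 member, difference 0.86, adjusted p = 0.0455) and 119 genes passed in all. The count of members higher at an unadjusted p under 0.05 was 3 to 6 under all alternatives but the Y-linked covariate, which left 1. Over all genes that share was 1.53% with that covariate and 4.96% to 11.8% under the others. Fn1 counted under every alternative, Postn under all but that covariate, and Tnc under all but that and the epithelium covariate. Thbs2 did not count with quantile normalization repeated, array weights, or the skeletal muscle, fibroblast or Y-linked covariate. Nor did it count without eNOS-deficient 11 or 19, or without wild type 2 or 3. Fn1, Thbs1, Thbs2, Tnc, Postn and Sparcl1 kept a positive difference under every alternative run. The lowest values were 0.80 for Fn1, 0.74 for Tnc, 0.49 for Postn and 0.26 for Thbs1, but 0.030 for Thbs2 and 0.034 for Sparcl1. Over all genes, adjusted calls numbered 5, and 0 to 119 under alternatives. Genes higher at an unadjusted p under 0.05 numbered 1415, and 276 (Y-linked covariate) to 2126 (array weights), and those lower 669, and 227 to 1301 under the same settings. A fit lacking both eNOS-deficient 11 and wild type 5, chosen after seeing the data, gave 8 members without overlap in either direction. Tnxb was among them and lower in eNOS-deficient aorta, by -0.25. In that fit 48.0% of all genes did not overlap in either direction, against 19.5% of all genes and 4 members with all 6 arrays. Groups of fewer arrays are separate more easily. The members' median was 0.18 with the Y-linked covariate and 0.39 to 0.54 with 1 array left out, the lowest without eNOS-deficient 11. Without that array the Thbs4 difference was 0.48. Thbs3 turned to -0.14 and Thbs4 to -0.047 with the Y-linked covariate, and Thbs4 to -0.81 with the fibroblast covariate. Sparc turned to -0.031 with the epithelium covariate and -0.0066 without both arrays. Tnxb turned to 0.064 with arrays centred on their medians and 0.39 with the fibroblast covariate, and ran from -0.13 to 0.11 with 1 array left out. The focal adhesion median turned to -0.073 with array weights, -0.10 with the epithelium covariate, -0.084 with the Y-linked covariate and -0.0046 without both arrays. It ran from -0.062 to 0.19 with 1 array left out, turning without wild type 5. The cause was not tested. Median centring moved the median of all genes from 0.036 to 0.10. Each member has 1 probe set, so probe set summary could not change its value. No paired analysis was possible because the genotypes share no replicate number in the labels.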
